A study of Mus musculus with 8 samples.

Results

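The genes described here are 10 markers of mural cells, the pericytes and smooth muscle cells that wrap brain vessels: 6 pericyte genes (Pdgfrb, Rgs5, Vtn, Kcnj8, Abcc9 and Anpep) and 4 smooth muscle genes (Acta2, Myh11, Tagln and Cnn1). They were chosen by symbol, not by level, out of 24343 genes in a whole-brain bulk RNA-seq table, and all 10 were found. The brains came from 3 mice of strain C57BL/6NCrl aged 56–62 days, all of a single condition with no engineered allele or treatment named, and gave 3, 3 and 2 libraries for mice 1, 2 and 3. Neither the animals' sex nor the meaning of a library number is labelled, so that libraries of one brain may be technical repeats, and a p-value here describes the spread between libraries of these 3 mice. Values are FPKM, sequenced fragments scaled to transcript length and library size, summed over the transcripts of a gene, averaged per mouse and then over the mice (mean ± SD, n = 3 mice). Depth was 1.31–2.02 gigabases on transcripts per library (median 1.76), and because read numbers are unknown no counting interval is given.

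Pericytes sit on capillaries inside the basement membrane and are held there by platelet-derived growth factor B, which endothelial cells release and which binds the receptor tyrosine kinase encoded by Pdgfrb. Arterial and arteriolar smooth muscle cells carry a contractile apparatus of smooth muscle actin, smooth muscle myosin heavy chain and actin-binding proteins, whose genes are classical targets of serum response factor and its cofactors. In whole brain both cell types are a minor share of the tissue, and none of the 10 genes is read in mural cells alone. Fewer cells of a type and less RNA per cell cannot be told apart in bulk samples.

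All 10 genes were detected in all 8 libraries, over a 61.4-fold span of mean level. The most abundant was Vtn, which encodes the adhesive glycoprotein vitronectin, at 35.7 ± 3.55 FPKM, a level above that of 92.4% of all genes. Rgs5, a GTPase-activating protein for G-protein α-subunits, followed at 29.5 ± 10.5 FPKM. The actin gene Acta2 stood at 8.86 ± 0.788 FPKM and Tagln, which encodes the actin-binding protein transgelin (SM22α), at 8.02 ± 1.64 FPKM. Pdgfrb (4.13 ± 0.103 FPKM) and Myh11, the smooth muscle myosin heavy chain gene (2.46 ± 0.159 FPKM), were intermediate. The 2 genes of the vascular ATP-sensitive potassium channel were nearly level, with 1.36 ± 0.0765 FPKM for Abcc9, the sulfonylurea receptor subunit, and 1.36 ± 0.471 FPKM for Kcnj8, the Kir6.1 pore subunit. Anpep, which encodes aminopeptidase N (CD13), had 1.29 ± 0.135 FPKM. Cnn1, which encodes calponin 1, was lowest, at 0.581 ± 0.0839 FPKM, still above 42.7% of all genes.

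In this order, 5 of the 9 neighbouring steps held in 8 of 8 libraries with mouse means that did not overlap: Rgs5 over Acta2 (3.33-fold), Tagln over Pdgfrb (1.94-fold), Pdgfrb over Myh11 (1.68-fold), Myh11 over Abcc9 (1.80-fold) and Anpep over Cnn1 (2.23-fold). The other steps were smaller than the spread between mice. Vtn exceeded Rgs5 in 7 of 8 libraries, the exception being mouse 3 library 2, and Acta2 exceeded Tagln in 7 of 8. Abcc9, Kcnj8 and Anpep could not be ordered, as Abcc9 was above Kcnj8 in 5 libraries and Kcnj8 above Anpep in 3.

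**Figure D1:**
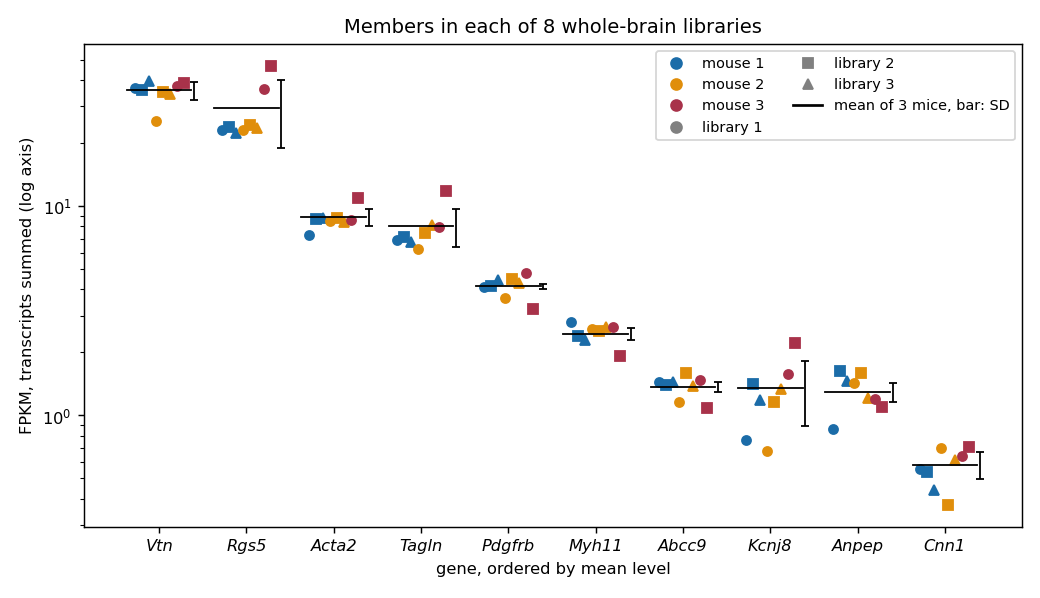
FPKM (log axis) of the 10 genes in each of the 8 libraries, coloured by mouse and shaped by library number, with black lines for the mean of 3 mice and bars for the SD between mice. Rgs5 in both libraries of mouse 3 (36.4 and 46.8) lies above the 22.4–24.4 of the other 6, whereas Pdgfrb, Myh11 and Abcc9 differ more between the libraries of mouse 3 than between the mouse means.

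The spread between mice was not the same for all members. The coefficient of variation was 35.5% for Rgs5, 34.7% for Kcnj8 and 20.4% for Tagln, and 2.49% for Pdgfrb, 5.61% for Abcc9 and 6.46% for Myh11. The median over the 10 genes was 10.2%, beside 12.3% over the 13001 genes whose mean reached 1 FPKM. Those 13001 genes were tested for differences between the 3 mice on the log2(FPKM + 1) scale, by the moderated F-test of limma, with Benjamini–Hochberg adjustment over all of them and a threshold of 0.05. Of the 10 genes, 9 were tested, Cnn1 being under the minimum. Rgs5 was the only one of the 9 that differed (adjusted p = 0.00699), whereas 25.5% of all tested genes did. In the contrast of mouse 3 with the mean of mice 1 and 2, 3 of the 9 were called, all higher in mouse 3 (Rgs5, Kcnj8 and Tagln), while 37.9% of tested genes were called, 20.4% higher and 17.5% lower. In the contrast of mouse 2 with mouse 1, limma called none of the 9, with none at an unadjusted p under 0.05, and 0.00769% of tested genes (1 gene, with 425 at an unadjusted p under 0.05).

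Rgs5 is among the most selective pericyte transcripts in brain, and limits signalling through Gq- and Gi-coupled receptors. In mouse 1 it was read at 23.2, 23.9 and 22.4 FPKM and in mouse 2 at 23.1, 24.4 and 23.7 FPKM. In mouse 3 it was read at 36.4 and 46.8 FPKM. The 6 libraries of mice 1 and 2 were thus tightly grouped and both libraries of mouse 3 lay above all of them. Rgs5 and Kcnj8 were the 2 of 9 tested members for which this held, as it did for 26.5% of tested genes, and no member had both libraries of mouse 3 below the other 6, as 21.7% of tested genes had. The confidence bounds deposited with these values were apart as well, with a lowest lower bound of 33.8 in mouse 3 and a highest upper bound of 26.6 in the other mice. The difference was 0.79 on the log2(FPKM + 1) scale (SE 0.0976, 95% interval 0.57 to 1.01, limma adjusted p = 0.00201). That difference is 1.73-fold in FPKM + 1, not in FPKM itself, and 96.3% of tested genes had a smaller one. It was called under 14 of 14 alternative settings. The deposited Rgs5 model of 1809 bases (chromosome 1, 169655501–169693526) is shorter than the 4096 bases of the GENCODE transcript, so that reads on the remaining bases are not part of its value.

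Other RGS genes of the same R4 family were measured as well. Of the 6 listed, 5 were tested, 0 differed between the 3 mice by limma's F-test and 1 was called in the contrast of mouse 3, Rgs16, which was lower (−0.44, limma adjusted p = 0.0284). Rgs4, a neuronal gene and the most abundant of them, was at 98.5 ± 6.48 FPKM with a difference of −0.15 (limma adjusted p = 0.162). In whole brain the pericyte gene Rgs5 was read at a lower level per transcript length than its neuronal relative.

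Kcnj8 and Abcc9 encode the pore and the regulatory subunit of the vascular ATP-sensitive potassium (KATP) channel, which opens when ATP falls and hyperpolarises the cell. They are neighbours on chromosome 6 (Kcnj8 at 142564939–142571356 and Abcc9 at 142587862–142702274), 16505 bases apart. Kcnj8 was read at 0.763, 1.41 and 1.18 FPKM in mouse 1 and at 0.673, 1.16 and 1.33 FPKM in mouse 2. In mouse 3 it was read at 1.58 and 2.22 FPKM. Both libraries of mouse 3 were above the other 6, by a margin that is small beside the spread within mice 1 and 2, and the deposited confidence bounds overlapped. The difference was 0.48 (SE 0.161, limma adjusted p = 0.0454), which passed the threshold in 5 of 14 alternative settings. The call was lost when mouse 1 library 1 or 3, mouse 2 library 2 or either library of mouse 3 was left out (adjusted p 0.0525 to 0.345, the highest without mouse 3 library 2).

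Abcc9 was read at 1.45, 1.40 and 1.45 FPKM in mouse 1, at 1.16, 1.60 and 1.39 FPKM in mouse 2 and at 1.48 and 1.08 FPKM in mouse 3. The mice overlapped, and the 2 lowest libraries came from mice 2 and 3. The difference of mouse 3 was −0.08 (95% interval −0.30 to 0.14, limma adjusted p = 0.534). The ratio of Abcc9 to Kcnj8 was 1.09 ± 0.359, with mouse means of 1.28, 1.31 and 0.674, and both libraries of mouse 3 (0.932 and 0.489) were below the 0.992–1.90 of the other libraries. This ratio sets a transcript of 7362 bases against 1 of 2188. With each library's trend with transcript length removed, the differences of mouse 3 were 0.12 for Abcc9 and 0.39 for Kcnj8. The paralogous genes of the neuronal KATP channel were read at higher levels, with 9.04 ± 1.64 FPKM for Kcnj11 (Kir6.2) and 3.62 ± 0.900 FPKM for Abcc8 (SUR1). Both were lower in mouse 3, by limma's contrast, with −0.38 for Kcnj11 (adjusted p = 0.0172) and −0.51 for Abcc8 (adjusted p = 0.0297).

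Abcc9 is the member with the most transcripts, 5 in the table. Its gene makes alternative last coding exons, which give the receptor forms SUR2A (heart and skeletal muscle) and SUR2B (smooth muscle and other tissues), so the tails are shown from the stop-codon end of the coding sequence, 5′ to 3′ on the minus strand of GRCm38 with the stop codon in capitals. The SUR2A tail lies at chr6:142594005-142594142 and the SUR2B tail at chr6:142590366-142590503, and the coding parts are of equal length, with 70 of 138 bases (50.7%) identical without gaps.
SUR2A tail of Abcc9: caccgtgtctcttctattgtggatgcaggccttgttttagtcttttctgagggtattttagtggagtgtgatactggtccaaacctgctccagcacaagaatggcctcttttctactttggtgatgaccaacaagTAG
SUR2B tail of Abcc9: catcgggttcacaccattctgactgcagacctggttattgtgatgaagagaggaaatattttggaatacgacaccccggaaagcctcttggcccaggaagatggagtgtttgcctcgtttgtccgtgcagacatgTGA

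The SUR2B form NM_011511 (7362 bases) took 70.6–99.998% of the gene's FPKM in each library, 91.8% of the mean level. A form 39 bases shorter, NM_001310143, reached 0.01 FPKM in 2 libraries, mouse 1 library 1 (0.381 FPKM) and mouse 1 library 2 (0.411 FPKM). An alternative internal exon of that length lies at chr6:142648027-142648065 on the minus strand, and its 39 bases are shown because they equal the difference in length between the forms.
Alternative internal exon of Abcc9: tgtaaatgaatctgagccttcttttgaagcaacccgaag
Of the 3 forms with the SUR2A tail, NM_021041 was at 0.198 FPKM in mouse 2 library 1, 17.2% of the gene there, and under 0.01 FPKM in the other 7 libraries. The other two did not reach 0.01 FPKM in any library. Markers of skeletal and cardiac muscle, where SUR2A is the usual form, had 1 of 8 genes above 1 FPKM, and Actc1 was at 0 in all 8 libraries. That 1 gene, Acta1, stood at 12.6 FPKM in mouse 2 library 1 and at 1.66–3.15 FPKM in the others. Its part in the SUR2A value of that library was not tested.

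Pdgfrb (chromosome 18, 61045150–61085067) was the steadiest member between mice. It was read at 4.09, 4.14 and 4.46 FPKM in mouse 1, at 3.66, 4.48 and 4.30 FPKM in mouse 2, and at 4.81 and 3.24 FPKM in mouse 3. Mouse 3 held both the highest and the lowest library, and the difference of its mean was −0.06 (95% interval −0.34 to 0.22, limma adjusted p = 0.713). The ratio of Pdgfrb to Rgs5 was accordingly 0.183 and 0.175 in mice 1 and 2 and 0.0968 in mouse 3. These transcripts also differ in length (5410 and 1809 bases). With each library's trend with transcript length removed, the difference of Pdgfrb was 0.07 and that of Rgs5 0.59. Of the 2 transcripts of Pdgfrb, which differ by 3 bases in length, NM_008809 took the larger share in 8 of 8 libraries (50.4–99.999%), and NM_001146268 was at 2.39 FPKM in mouse 3 library 1 and at 5.0e-05 FPKM in mouse 3 library 2.

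The ligands of the platelet-derived growth factor receptors and the α-receptor gene Pdgfra were all tested. Of these 5 genes, 1 differed between the 3 mice by limma's F-test, and 2 were called in the contrast of mouse 3, both higher. Pdgfb, the ligand that recruits pericytes, was at 4.97 ± 0.413 FPKM and was not called (0.14). Pdgfd, which also binds the β-receptor, was at 3.35 ± 1.43 FPKM and was higher in mouse 3 (0.73, SE 0.143, limma adjusted p = 0.00646). Pdgfa, the ligand of the α-receptor and the most abundant of the list, was at 18.0 ± 2.22 FPKM with a difference of −0.26 (limma adjusted p = 0.0552). With each library's trend with transcript length removed, the difference of Pdgfa was −0.69 (limma adjusted p = 0.00254).

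Vtn (chromosome 11, 78499120–78502325) was read at 36.7, 36.0 and 39.8 FPKM in mouse 1 and at 25.5, 35.1 and 34.3 FPKM in mouse 2. In mouse 3 it was read at 37.5 and 38.6 FPKM. Library 1 of mouse 2 lay below all others, and the other libraries of that mouse lay just below those of mice 1 and 3, which overlapped. The difference of mouse 3 was 0.15 (95% interval −0.13 to 0.42, limma adjusted p = 0.360). Vitronectin in blood comes from liver. Of 4 liver markers, Alb and Fgb were at 0 in all 8 libraries, Apoa1 was at 0.201 FPKM (0 in 1 library) and Apoa2 at 1.47 FPKM (0.441–2.70), and their part in the Vtn value was not tested. Of the 5 integrin genes listed as its receptors, 4 were tested, 1 differed between the mice by the F-test (Itgb8, adjusted p = 0.0336) and 3 were higher in mouse 3. These were Itgb1 (18.9 ± 2.04 FPKM, difference 0.25, which was −0.040 in TPM and 0.20 there relative to the median of all genes), Itgb5 (11.4 ± 1.79 FPKM, difference 0.34) and Itgb8 (12.5 ± 2.39 FPKM, difference 0.42). The other tested gene, Itgav, went the other way and was not called (−0.22, limma adjusted p = 0.110). In TPM it was called lower (−0.52, limma adjusted p = 0.0134), at −0.28 relative to the median of all genes. Itgb3, the partner in the classical vitronectin receptor, was at 0.566 ± 0.0689 FPKM and was not tested.

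Anpep, a membrane peptidase used to sort brain pericytes, was read at 0.864, 1.64 and 1.47 FPKM in mouse 1, at 1.42, 1.60 and 1.22 FPKM in mouse 2 and at 1.19 and 1.10 FPKM in mouse 3. Both the lowest and the highest library came from mouse 1. The difference of mouse 3 was −0.13 (95% interval −0.43 to 0.17, limma adjusted p = 0.454). Of 9 further pericyte markers, 8 were tested, 1 differed by the F-test and the same gene, Ndufa4l2, was the 1 called in mouse 3 (0.74, SE 0.142, limma adjusted p = 0.00641, with mouse means of 1.36, 1.83 and 3.30 FPKM, a call lost with the length trend removed, where the difference was 0.30 and the adjusted p 0.0665). Mcam, an adhesion molecule shared with endothelium and the most abundant of the 9, was at 7.30 ± 0.773 FPKM with a difference of 0.19 (limma adjusted p = 0.117). Among 6 transcription factors of mural cells, 4 were tested, 0 differed by the F-test and 1 was higher in mouse 3, the Notch target Heyl (0.26, limma adjusted p = 0.0203). Ebf1, the most abundant of them, was at 4.14 ± 0.496 FPKM.

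Acta2 (chromosome 19, 34240336–34255373) was read at 7.27, 8.67 and 8.80 FPKM in mouse 1, at 8.54, 8.81 and 8.44 FPKM in mouse 2 and at 8.58 and 10.9 FPKM in mouse 3. Mouse 3 library 2 lay above all others, and library 1 of that mouse lay within the range of mice 1 and 2. The difference was 0.18 (95% interval −0.05 to 0.42, limma adjusted p = 0.191). Smooth muscle actin is nearly identical in sequence to other actins. Of the 50-base words of its GENCODE transcript (2035 bases), 0.352% occurred exactly in another gene's transcripts. The deposited model has 2572 bases, and neither its bases beyond that transcript nor inexact matches were searched.

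Tagln (chromosome 9, 45929628–45936058) was read at 6.86, 7.11 and 6.73 FPKM in mouse 1, at 6.25, 7.45 and 8.10 FPKM in mouse 2 and at 7.94 and 11.9 FPKM in mouse 3. Library 1 of mouse 3 lay within the range of mouse 2, so that the groups overlapped. The difference was 0.41 (SE 0.139, limma adjusted p = 0.0464), and without mouse 3 library 2 it was 0.15 (limma adjusted p = 0.444). It passed the threshold in 3 of 14 alternative settings and was also lost when any library of mouse 1 or library 1 or 2 of mouse 2 was left out. An antisense gene, Gm48529, overlaps 1241 of its exon bases and the gene Pcsk7, read at 3.12–4.89 FPKM, overlaps 108 on the opposite strand, 48.3% of the 50-base words of Tagln occur in another gene's transcripts, and the strand setting of the counting was not stated. For the other members at most 2.16% of such words were shared. Tagln relative to Acta2 was 0.899 ± 0.101.

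Cnn1 (chromosome 9, 22099253–22109221) was read at 0.553, 0.536 and 0.438 FPKM in mouse 1, at 0.701, 0.374 and 0.610 FPKM in mouse 2 and at 0.642 and 0.705 FPKM in mouse 3. The mice overlapped. Relative to Acta2 it was at 0.0654 ± 0.00365, so that calponin 1 was read at a small fraction of the level of the actin it binds. Of 10 further contractile genes, 7 were tested, 1 differed by the F-test and 2 were higher in mouse 3. Ppp1r14a (CPI-17), an inhibitor of myosin phosphatase and the most abundant of them, was at 24.0 ± 7.19 FPKM and higher in mouse 3 (0.66, limma adjusted p = 0.00336). Myl9, the regulatory light chain, was at 15.1 ± 2.86 FPKM (0.41, limma adjusted p = 0.0278). Of serum response factor and its 3 cofactors, 3 genes were tested, 2 differed by the F-test and the same 2, Mkl1 (−0.56) and Mkl2 (−0.57), fell below the other mice in mouse 3 (limma adjusted p = 0.00708 and 0.0130), opposite in sign to the contractile genes called. The contractile genes called have short transcripts (531 and 1083 bases) and Mkl1 and Mkl2 long ones (4366 and 8295 bases), and with the trend of each library with transcript length removed neither Ppp1r14a (0.13, limma adjusted p = 0.274) nor Myl9 (0.0027, limma adjusted p = 0.984) was called, while Mkl1 (−0.46, limma adjusted p = 0.00926) and Mkl2 (−0.34, limma adjusted p = 0.0293) were. The F-test calls of Ppp1r14a and Mkl2 were lost there (adjusted p = 0.267 and 0.0803), and that of Mkl1 was kept (adjusted p = 0.0287). Myocardin, the smooth muscle cofactor encoded by Myocd, was at 0.0538 ± 0.0104 FPKM.

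Myh11 (chromosome 16, 14194527–14291408) was read at 2.80, 2.40 and 2.31 FPKM in mouse 1, at 2.58, 2.54 and 2.64 FPKM in mouse 2 and at 2.64 and 1.92 FPKM in mouse 3. Library 2 of mouse 3 was the lowest and the mice overlapped. The difference was −0.12 (95% interval −0.35 to 0.11, limma adjusted p = 0.367), and Myh11 relative to Acta2 was 0.279 ± 0.0395. Myh11 makes heavy chains with alternative carboxy-terminal tails, SM1 and SM2, set by whether a 39-base exon near the end is included, and the coding ends of both are shown because the deposited transcripts differ there. They are on the minus strand of GRCm38, with the stop codon in capitals, at chr16:14195052-14195184 for SM1 and chr16:14198058-14198088 for SM2.
SM1 tail of Myh11: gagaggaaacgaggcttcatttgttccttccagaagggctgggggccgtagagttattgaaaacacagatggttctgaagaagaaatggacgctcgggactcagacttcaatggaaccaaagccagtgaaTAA
SM2 tail of Myh11: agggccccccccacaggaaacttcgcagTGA

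The SM1 transcript NM_001161775 took 21.9%, 71.5% and 71.1% of the gene's FPKM in the libraries of mouse 1, 15.5%, 75.7% and 32.7% in those of mouse 2 and 99.997% and 54.1% in those of mouse 3. SM1 was the larger form in 5 libraries and SM2 (NM_013607, 39 bases longer) in 3, and the larger form changed between libraries of one brain in mice 1 and 2. The sum over both forms moved 1.46-fold between the highest and the lowest library. Within a library, the deposited confidence bounds of the 2 forms overlapped in 1 of 8 libraries. The bounds of SM1 were 0.380–0.845 FPKM in mouse 1 library 1 and 1.40–2.03 FPKM in mouse 1 library 2. Those bounds thus did not cover the spread between these libraries. The 2 forms of Pdgfrb, of which NM_008809 was always the larger, also had bounds that overlapped in 1 of 8 libraries. For NM_001146268 the bounds were 1.93–2.85 FPKM in mouse 3 library 1 and 0–0.0267 FPKM in mouse 3 library 2.

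**Figure D2:**
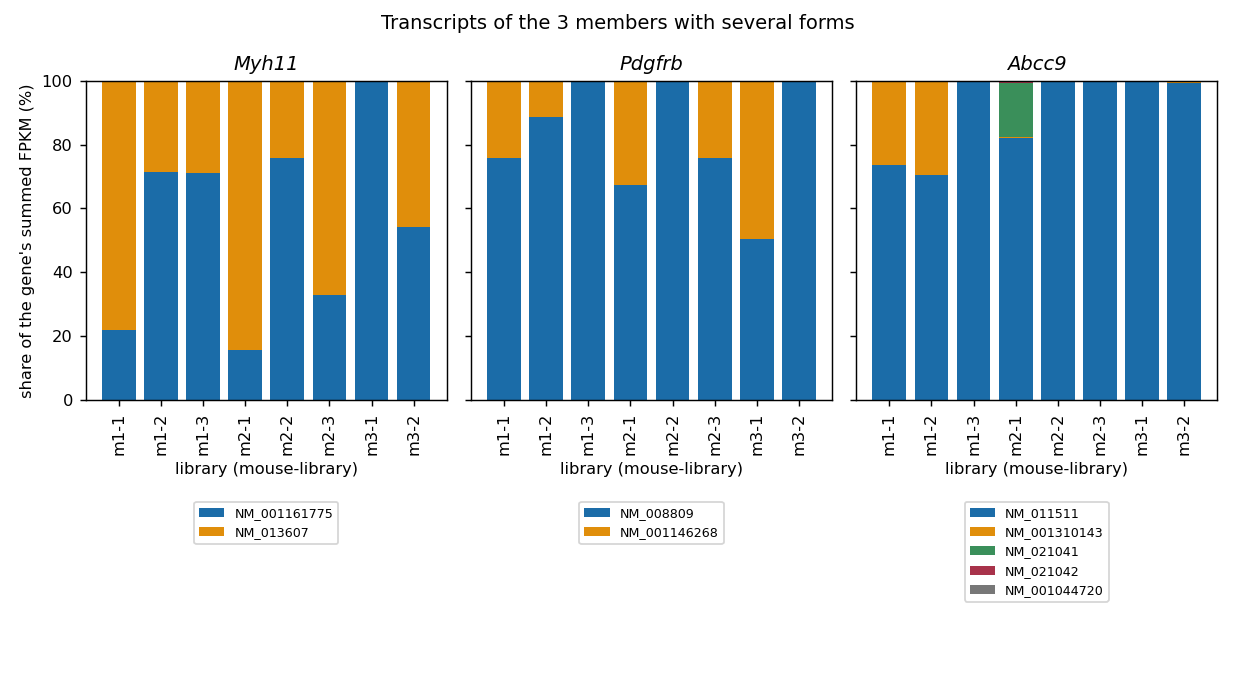
Share (%) of the summed FPKM of Myh11, Pdgfrb and Abcc9 that fell to each deposited transcript, in stacked bars for the 8 libraries (mouse-library). The larger Myh11 form switches between libraries of a brain, with SM1 (NM_001161775) at 15.5–99.997%, while the SUR2B form of Abcc9 (NM_011511) keeps 70.6–99.998% throughout.

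The sign of the difference of mouse 3 followed transcript length among the members. The median length over tested genes was 2845 bases. The 5 tested members shorter than that (Rgs5, Vtn, Kcnj8, Acta2 and Tagln, 1586–2572 bases) had positive differences in 5 of 5, and the 4 longer ones (Pdgfrb, Abcc9, Anpep and Myh11, 3423–7362 bases) in 0 of 4. The same tilt ran through the table, in which 71.4% of shorter and 33.0% of longer tested genes had positive differences, with medians of 0.19 and −0.12. With each library's trend with transcript length removed, the 4 longer members had differences of −0.06 to 0.12 (3 of 4 positive), Vtn turned to −0.07, Rgs5 kept 0.59 (limma adjusted p = 0.00230), Kcnj8 0.39 (limma adjusted p = 0.0464) and Tagln 0.15 (limma adjusted p = 0.259). On TPM, for which all libraries sum alike, the median difference over all genes was −0.24 in place of 0.02, and the share of calls that were higher in mouse 3 was 14.4% in place of 53.9%. Relative to those medians Rgs5 was 0.75 higher in TPM and 0.77 higher in FPKM. On the TPM scale Acta2 was at −0.09 and Vtn at −0.15, which relative to the median of all genes are 0.15 and 0.10, the same sign as in FPKM (0.16 and 0.13). The members called on TPM were Rgs5 (0.51), Abcc9 (−0.35) and Myh11 (−0.41). They were 30% of the members tested there, while 45.9% of all genes tested there were called. Relative to the median, Abcc9 was at −0.10 on both scales, and Myh11 at −0.17 in TPM and −0.14 in FPKM.

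**Figure D3:**
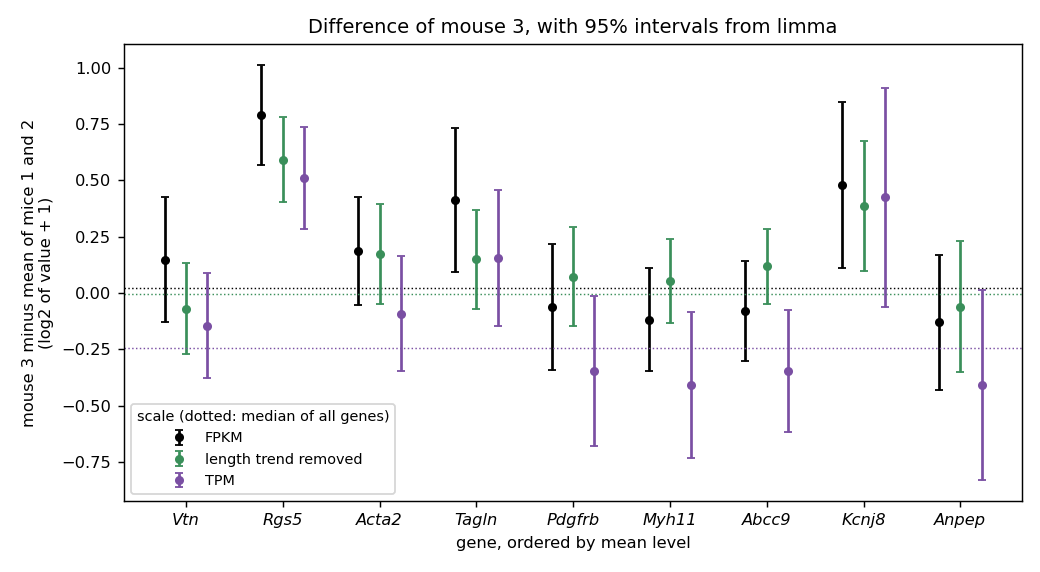
Difference of mouse 3 from the mean of mice 1 and 2 on the log2(value + 1) scale for the 9 tested genes, with 95% intervals from limma, on FPKM, with the length trend removed and on TPM, and dotted lines for the median of all tested genes on each scale. Rgs5 stays above 0 on all 3 scales (0.79, 0.59 and 0.51), and the TPM values sit lower as a whole, around a median of −0.24, against which Acta2 is positive on all 3 scales and Vtn on TPM and FPKM.

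The 10 genes did not vary together over the 8 libraries, as far as 8 libraries of 3 brains can show. As a description, the Pearson correlation of log2(FPKM + 1) had a median of 0.21 over the 15 pairs of pericyte genes (−0.46 to 0.91), of 0.04 over the 6 pairs of smooth muscle genes (−0.92 to 0.79) and of −0.24 over the 24 pairs across the lists. The highest pair was Pdgfrb with Abcc9 (0.91), both pericyte genes with long transcripts, and the lowest was Acta2 with Myh11 (−0.92), both smooth muscle genes that differ in length (2572 and 6593 bases). Grouped by length in place of cell type, 14 of 15 pairs of shorter members and 5 of 6 pairs of longer members were positive (medians 0.53 and 0.41), and 3 of 24 pairs of a shorter with a longer member (median −0.42). With the length trend removed, the median of the mixed pairs was 0.06 (12 of 20 positive, 9 members measured), that of the longer pairs 0.07 (3 of 6 positive) and that of the shorter pairs 0.62 (6 of 10 positive, the lowest at −0.65). The points share their libraries, depth and brains, and the grouping by length was made after the values were seen.

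**Figure D4:**
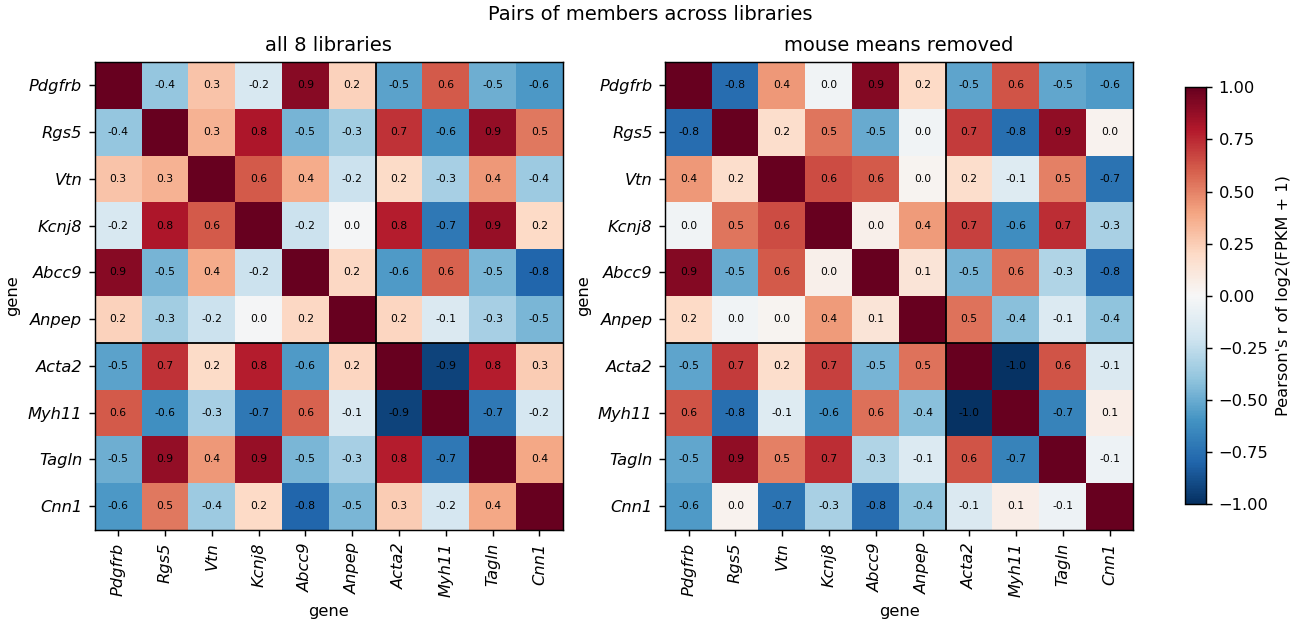
Pearson correlation of log2(FPKM + 1) between pairs of the 10 genes across 8 libraries (left) and after removal of the mouse means (right), with black lines between the 6 pericyte and the 4 smooth muscle genes. Positive and negative cells are mixed within both lists, from 0.91 for Pdgfrb with Abcc9 to −0.92 for Acta2 with Myh11.

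Markers of other vascular and border cells were uneven in mouse 3. Summed endothelial and blood markers were higher there, whereas fibroblast and choroid plexus sums overlapped between the mice. For the counts below, 25.5% of all tested genes differed by the F-test, and 20.4% were called higher and 17.5% lower in mouse 3. Of 10 endothelial markers, all were tested, 2 differed by the F-test and 3 were higher in mouse 3, and their summed level was 97.0–129 FPKM in mice 1 and 2 and 180–195 FPKM in mouse 3. The 3 called were Itm2a (0.94, limma adjusted p = 0.00197), Ly6c1 (0.85) and Cldn5 (0.68), which are among the more abundant of the list, and of the other 7, Cdh5 (−0.14) and Abcb1a (−0.01) were negative. With the length trend removed, Cldn5 was not called, and Flt1, Slco1a4 and Tek were called as higher. The summed pericyte members were at 55.5–70.7 FPKM in mice 1 and 2 and 83.0–93.0 FPKM in mouse 3, and the smooth muscle members at 17.5–19.8 and 19.8–25.4 FPKM. The pericyte sum was moved mainly by Rgs5 (mouse means 23.2, 23.7 and 41.6 FPKM): 3 of the 6 pericyte members had positive differences, with a median of 0.04. Of 7 fibroblast markers 0 differed by the F-test and 1 was lower in mouse 3 (Col1a2, −0.27), with sums of 49.4–56.7 and 50.4–51.0 FPKM. Igf2, the most abundant of them, was at 23.4 ± 2.38 FPKM with a difference of −0.19 (limma adjusted p = 0.0923). Of 5 blood markers 1 differed and was higher (Hbb-bt, 1.14), with sums of 530–659 and 801–897 FPKM. Hba-a1, the most abundant of these, was at 464 ± 52.7 FPKM (0.28, limma adjusted p = 0.161). Of 5 choroid plexus markers 1 differed and was lower (Kl, −0.68), and 2 had positive differences. Their sums were 322–552 FPKM in mice 1 and 2 and 435–566 FPKM in mouse 3. The most abundant, Ttr, was at 472 ± 52.3 FPKM with a difference of 0.07 (limma adjusted p = 0.765). Of 6 markers of neurons, astrocytes, oligodendrocytes and microglia, which mark the tissue as brain, 5 differed by the F-test, 3 of them higher in mouse 3 and 2 lower, with Mbp at 1288 and 1322 FPKM in mice 1 and 2 and 3166 FPKM in mouse 3. The part of these cell types in the Rgs5, Kcnj8 and Tagln values was not tested.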

How the data were processed

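Whole-brain RNA was extracted with the RNAqueous Micro kit, kept where its integrity score was high, made into libraries with Kapa mRNA HyperPrep kits and sequenced on a NextSeq500. The submitters' processing notes name TopHat, Cufflinks and the build mm10, with no versions, and the strand setting was not given in the sources used here. The authors deposited FPKM values with lower and upper confidence bounds for 34535 RefSeq transcripts in 8 libraries, and the deposited coverage is a signal, the read depth per base, not scaled for library size. The authors' estimation divided reads between transcripts of a gene, which leaves a single form less certain than the gene. Of all values, 8 in 2 genes carried the status FAIL, none in the 10 genes.

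FPKM were summed per gene and tested as log2(FPKM + 1) with limma 3.58.1 (R 4.3.3) on all 8 libraries, among genes whose mean reached 1 FPKM, as an F-test over mice and as contrasts between them, with adjusted p at 0.05. The script was tested on simulated data. Libraries with the same number deviated together in 7 of 7 pairs, but weakly (r at most 0.107), and these pairs are not independent. The main fit assumed no pairing, and the library number as a block was an alternative. Alternatives were a pseudocount of 0.1, no filter, TPM, removal of the trend with transcript length (a natural spline with 4 degrees of freedom), the highest transcript only, the library number as a block, and each library left out in turn. Exon overlaps, shared 50-base words and sequences came from GENCODE M21 on GRCm38, the build named mm10. GENCODE transcripts were matched to deposited ones by RefSeq name, without a comparison of exon structure. NM_011511 and NM_001310143 of Abcc9 were thereby matched to the same GENCODE transcript, as were both forms of Pdgfrb. Coordinates are 1-based. Promoters and proteins were not used here. The 10 genes, the other lists and the tests were chosen with earlier results of these data known. Genes named beside the 10 are, from each list, the most abundant and the one with the smallest adjusted p, and those most alike in profile. Others were named as members of a list after their values were seen. These were Abcc8, Pdgfb, Itgav, Itgb5, Itgb3, Myl9, Myocd, Actc1, Alb, Fgb, Apoa1, Ly6c1, Cldn5, Cdh5, Abcb1a, Flt1, Slco1a4, Tek, Notch3, Art3 and Rgs8.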

Additional observations from a re-analysis of the deposited data

Results flagged for a closer look

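In 7 of 39 results looked at, 1 library lay apart from the other 7. The gap took more of the group's range than Dixon's 95% limit for 8 values allows. Chance passes that test in about 1 of 20 groups. All 7 results were levels of single genes. Among the 10 genes these were 3. Vtn was at 25.5 FPKM in mouse 2 library 1, against 34.3–39.8 in the others. Acta2 was at 10.9 FPKM in mouse 3 library 2, against 7.27–8.81. Tagln was at 11.9 FPKM in the same library, against 6.25–8.10. Among genes of the other lists, Ebf1 was at 3.01 FPKM in mouse 3 library 1, against 4.08–5.02, and Rgs16 at 3.38 FPKM in that library, against 5.204–6.84. Pdgfa was at 22.9 FPKM in mouse 1 library 3, against 15.6–19.02. Acta1, a skeletal muscle actin gene, was at 12.6 FPKM in mouse 2 library 1, against 1.66–3.15. Mouse 2 library 1 was also the shallowest of the 8, with 1.31 gigabases on transcripts.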

How the results depend on the processing

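Rgs5 differed between the mice under 14 of 14 alternatives (limma adjusted p 0.00475–0.0479), and its difference in mouse 3 kept its sign. The number of members called in the contrast of mouse 3, 3 of 9 tested on the main scale, was 1 with a pseudocount of 0.1, 1 of 10 tested without a filter, 3 of 10 in TPM, 2 with the length trend removed (Kcnj8 and Rgs5), 1 with the highest transcript only and 1–3 when a library was left out. The number that differed by the F-test, 1, was 2 with the library number as a replicate block (Rgs5 and Kcnj8) and 1–2 when a library was left out (2 without mouse 3 library 1, Rgs5 and Tagln). Over all genes, 3310 differed by the F-test, 5191 in TPM, 2995 with the block and 126–3873 when a library was left out (126 without mouse 3 library 2). The contrast of mouse 3 called 4921 genes, 4564 with the block and 1488–5497 when a library was left out (1488 without mouse 3 library 2). Beside the member counts, the share of all tested genes called in the contrast of mouse 3 was 37.9% on the main scale. It was 36.5% with a pseudocount of 0.1, 24.2% without a filter and 45.9% in TPM. With the length trend removed it was 32.7%, with the highest transcript only 32.4% and with the block 35.1%. What the library numbers stand for is not labelled. Same-numbered libraries correlated at 0.00276 to 0.107 in their deviations from the mouse means (7 of 7 pairs above 0), and others at −0.135 to 0.0645 (4 of 14). The same-numbered correlations were all positive but weak, and the main fit assumed no pairing. The pairs are not independent, because deviations cancel within a mouse and those of the 2 libraries of mouse 3 mirror each other. The counts of positive pairs thus hold less than their number.

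None of the 3 members' differences called on the main scale changed sign, and of 25 called genes of the other lists 1 did, Itgb1 (0.25, −0.040 in TPM). Abcc9 (−0.08) was 0.027 with the highest transcript only and 0.12 with the length trend removed, and −0.21 to 0.044 when a library was left out. Myh11 (−0.12) was 0.053 with the length trend removed and −0.28 to 0.042 when a library was left out, and Pdgfrb (−0.06) was 0.072 and −0.29 to 0.17. The positive ends of these ranges came without mouse 3 library 2. Vtn (0.15) was −0.15 in TPM and −0.070 with the length trend removed. Acta2 (0.18) was −0.091 in TPM. TPM moved the median of all genes to −0.24, and relative to it Vtn (0.10) and Acta2 (0.15) kept their sign. Acta2 was 0.34 without mouse 3 library 1, where it was called (limma adjusted p = 0.0429). Among called genes of the other lists, the F-test calls of Ndufa4l2, Pdgfd, Itm2a and Hbb-bt held in 13 of 14 alternatives, those of Ppp1r14a and Mkl1 in 12, Kl in 11, Kcnj11 in 8, Itgb8 in 6 and Mkl2 in 4, and each of these was lost without mouse 3 library 2 (limma adjusted p 0.0700 for Itm2a to 0.252 for Mkl2). With the length trend removed, the contrast calls of Ppp1r14a, Myl9, Ndufa4l2, Cldn5, Col1a2 and Abcc8 were lost (limma adjusted p 0.0519 for Abcc8 to 0.984 for Myl9). Other genes of the lists were called there but not on the main scale (difference and limma adjusted p). Lower in mouse 3 were Pdgfa (−0.69, 0.00254) and Art3 (−0.35, 0.0405). Higher were Flt1 (0.44, 0.00475), Rgs8 (0.39, 0.0166), Slco1a4 (0.37, 0.0177), Notch3 (0.32, 0.0291) and Tek (0.24, 0.0331). Beyond the settings that change scale, the cause was not tested. Mouse 3 has 2 libraries, so leaving out 1 rests its value on a single library.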

Other observations

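The genes whose profile over the 8 libraries was most like the mean standardised profile of the 6 pericyte members, among the tested genes other than the members, were Gm6644 (r = 0.977), 0610009O20Rik (0.974), Orai2 (0.970), Parp11 (0.967) and Ino80e (0.965). After removal of the mouse means they were Slco1c1 (0.999), Chfr (0.997), Tspan31 (0.996), Atg14 (0.995) and Fam118b (0.993). For the 4 smooth muscle members they were Ginm1 (0.978), Car13 (0.971), Tiparp (0.956), Slfn5 (0.951) and Rfxank (0.950), and after removal of the mouse means Tspan15 (0.985), Rnf113a2 (0.981), Taf13 (0.977), Ccnc (0.976) and Zfp715 (0.969). No gene was shared between the 4 sets of 5, and none of them belongs to the marker lists used here. With 8 libraries that share brains and depth, these values are a description of likeness and nothing more.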
